A study of Mus musculus with 4 samples.

Results

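The Hist genes are the mouse histone genes that sit together in clusters and carry the symbols Hist1h, Hist2h, Hist3h and Hist4. They were chosen by symbol alone. The gene tables list 67 such genes, of which 62 had at least 1 unique molecular identifier (UMI, 1 captured RNA molecule) over all libraries and are described here, out of 32285 genes in all. Hist1h2ah, Hist1h2ao, Hist1h2ba, Hist1h2bk and Hist1h3h had 0 UMIs. The counts come from dissociated whole retinas of 30-day-old mice, 1 retina and 1 droplet library per mouse. There were 2 wild-type (WT) mice, a female and a male, and 2 mice labelled nlgf (NLGF here), again a female and a male. NLGF is the name of an App knock-in line, in which the mouse App gene carries a humanised amyloid-β sequence with familial Alzheimer's disease mutations and is driven by its own promoter in every cell that uses it. The labels give no further treatment and no litter, and each mouse is 1 sample, so p-values measure the spread between single retinas.

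Histones package DNA. H2A, H2B, H3 and H4 form the core of the nucleosome, and the linker histone H1 binds where DNA enters and leaves it. Most genes of the Hist clusters are replication-dependent: they lack introns, are transcribed in S phase, and make mRNAs that end in a short stem-loop, bound by the stem-loop binding protein SLBP, in place of a poly(A) tail. Some also use a poly(A) site further downstream, and such polyadenylated forms are known from differentiated cells, which retinal neurons and resting Müller glia (support cells whose processes cross all retinal layers) are at this age. Droplet libraries of this kind prime on poly(A).

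The stem-loop was searched in the annotated 3′ UTRs (GENCODE M21, GRCm38), since the processed, tail-less form of these mRNAs ends in it. A longer, polyadenylated form can contain it too, and genes with a stem-loop held 77.0% of the Hist UMIs. The stem-loop was found in 46 of the 67 listed genes (68.7%) and in 0.286% of 20945 other protein-coding genes with a 3′ UTR. The 67 include genes without an annotated 3′ UTR, such as Hist1h1b, in which none could be found. The members on which the genotype results turn are shown with the 16-base stem-loop in capitals and up to 5 flanking bases on each side, 5′ to 3′ on the gene's own strand. Hist1h2ap and Hist1h4h are shown as members with fewer than 50 annotated bases after the loop, the others as members with a longer extension.
Hist1h2ap: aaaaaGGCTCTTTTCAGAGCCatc
Hist1h2ae: acaaaGGCTCTTTTCAGAGCCattca
Hist1h1d: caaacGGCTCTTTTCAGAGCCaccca
Hist2h4: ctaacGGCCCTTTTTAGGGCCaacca
Hist1h4i: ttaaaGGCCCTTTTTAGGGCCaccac
Hist1h4h: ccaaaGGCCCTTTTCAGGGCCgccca
The 16 bases are identical in Hist1h2ap, Hist1h2ae and Hist1h1d. Hist2h4 and Hist1h4i share another form. Hist1h4h differs from both forms among the 6 genes shown, but other H4 genes, Hist4h4, Hist1h4c and Hist1h4d among them, carry the same 16 bases. The annotation ends 3 bases after the loop in Hist1h2ap (chr13:21833026-21833507, minus strand) and 46 bases after it in Hist1h4h (chr13:23531050-23531519, plus strand). It goes on for 1257 bases in Hist2h4 (chr3:96261682-96263311, minus strand), 330 in Hist1h4i (chr13:22040636-22041362, minus strand), 151 in Hist1h2ae (chr13:23570517-23571220, minus strand) and 4884 in Hist1h1d (chr13:23553262-23560686, plus strand). Each of these 6 genes is annotated as 1 transcript with 1 exon.

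Members with a long annotated 3′ UTR held most of the UMIs. The 25 listed genes with a 3′ UTR of at least 200 bases held 89.7% of the Hist UMIs, with a median of 826 UMIs per gene against 53 for the other 42. The poly(A) signal AATAAA stood in the last 50 annotated bases of 15 of the 67 genes (22.4%), and those 15 held 36.8% of the Hist UMIs. Of the other protein-coding genes with a 3′ UTR, 72.4% had it. The shares are not like for like. A gene counted if any of its transcripts held the signal, and most Hist genes have a single annotated transcript. Some of the 67 also have no annotated 3′ UTR. Hist1h4h was an exception to the length pattern, with 5125 UMIs and a 3′ UTR of 93 bases, as was Hist1h2ap, with 1471 UMIs and 57 bases. At the other end, Hist1h2bh had 47 UMIs with a 3′ UTR of 1258 bases. Only annotated ends were compared, so an extension that the annotation lacks would be missed.

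**Figure D1:**
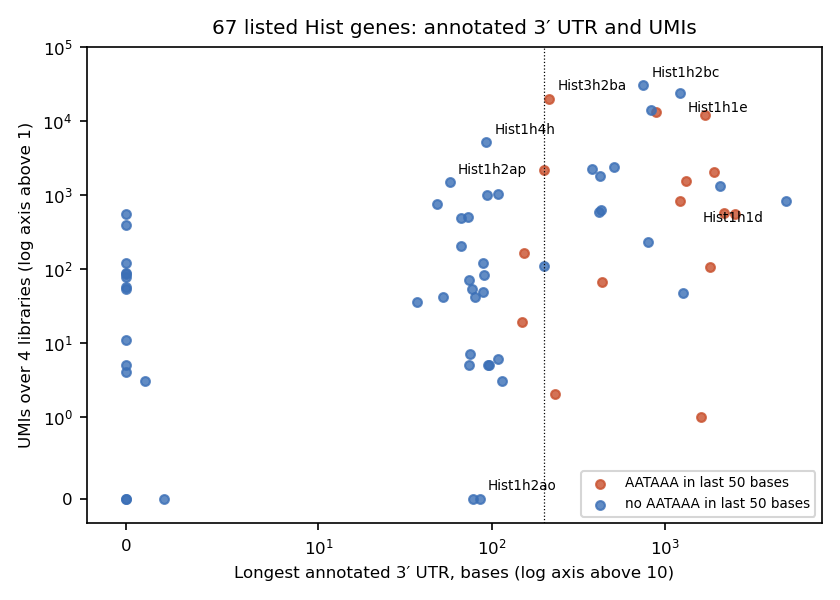
UMIs over the 4 libraries (vertical, log axis above 1) against the longest annotated 3′ UTR in bases (horizontal, log axis above 10) for the 67 listed Hist genes. Red points have AATAAA in the last 50 annotated bases, the dotted line marks 200 bases, and the 3 named genes with most UMIs lie to its right.

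Near-identical copies limit what single members mean. The coding sequence of Hist1h2ap is identical to that of Hist1h2ao, which has 0 UMIs. Of the 90-base windows of the Hist1h2ap transcript, 92.4% occur in another listed Hist transcript. A read inside those windows cannot be given to 1 gene, so UMIs counted for Hist1h2ap would be those whose reads touch its few own bases, and UMIs of Hist1h2ao may be lost. Hist2h2aa1 (1033 UMIs) and Hist2h2aa2 (6 UMIs) are identical over their last 300 bases, and all 90-base windows of Hist2h2aa2 are shared. Over all members, 22 had more than 50% of their windows shared, and these held 4.26% of the Hist UMIs. Hist2h4 and Hist4h4 shared no window with another listed Hist gene. Windows were compared among the 67 listed genes only, so copies elsewhere in the genome would be missed. All 13 H4 genes encode 1 protein, and 9 genes, Hist1h2ap and Hist1h2ae among them, encode 1 identical H2A protein. Overlap adds a further limit: Hist1h1e overlaps Hist1h2be on the same strand, Hist3h2a overlaps Trim17 on the same strand, and Hist1h2ap and Hist1h2ae overlap the predicted genes Gm44466 and Gm44394 on the other strand.

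Promoters were read from RefSeq (GRCm38.p6, 250 bases before to 50 after the annotated start), where 62 of the 67 listed genes matched, and searched on both strands for the letters CCAAT (the NF-Y box), TATAAA and ATTTGCAT (the octamer motif). CCAAT was present in 53 of 62 (85.5%, against 41.1% of all 27025 genes), TATAAA in 35 (56.5%, against 15.7%) and ATTTGCAT in 13 (20.97%, against 1.97%). Each Hist gene was read at 1 promoter, the one nearest its annotated start. In the share of all genes, a gene counted if any of its promoters held the letters. The octamer letters occurred in 7 of 18 H2A and 6 of 16 H2B promoters and in 0 H1, H3 or H4 promoters, while CCAAT was present in 3 of 12 H4 promoters. Hist1h2ap (chr13:21833426-21833725, minus strand) and Hist1h2ae (chr13:23571171-23571470, minus strand) are shown because they encode the same protein and both were higher in NLGF Müller glia. Capitals mark the motif letters on either strand.
Hist1h2ap: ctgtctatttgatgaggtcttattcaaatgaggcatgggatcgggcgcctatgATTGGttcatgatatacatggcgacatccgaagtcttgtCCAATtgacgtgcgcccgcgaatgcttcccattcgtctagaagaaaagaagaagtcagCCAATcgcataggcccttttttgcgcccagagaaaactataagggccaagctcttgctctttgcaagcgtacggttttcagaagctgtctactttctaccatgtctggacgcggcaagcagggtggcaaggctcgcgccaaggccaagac
Hist1h2ae: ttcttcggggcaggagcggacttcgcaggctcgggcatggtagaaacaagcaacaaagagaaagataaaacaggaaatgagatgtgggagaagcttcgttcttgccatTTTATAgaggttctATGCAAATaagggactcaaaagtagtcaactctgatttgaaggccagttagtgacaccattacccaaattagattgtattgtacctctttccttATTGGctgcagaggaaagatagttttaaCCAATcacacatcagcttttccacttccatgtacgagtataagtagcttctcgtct
The letters of all 3 motifs are present in the Hist1h2ae window, and CCAAT alone in the Hist1h2ap window. The Hist1h2ae window runs into the H2B gene Hist1h2bg, which starts at chr13:23571396 on the plus strand. The letters in it are therefore not assigned to 1 of the 2 genes. Where windows of neighbouring genes overlap, 1 site can be counted for both, also in the counts by type.

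The libraries held between 19128388 and 23473093 UMIs in 8060 to 9068 barcodes. After filters, 31329 cells fell into 19 clusters and 8 classes named from marker genes, so Müller glia and the other names stand for Müller-like cells and so on. Libraries shared 17 to 34 barcodes per pair. The classes held 25192 rods, 1526 cone bipolar cells, 1413 Müller glia, 695 rod bipolar cells, 674 cones, 594 amacrine cells, 87 endothelial cells (with the mural gene Rgs5 among the leading genes) and 80 microglia, and 1068 cells stayed unnamed. The Müller class joined a cluster of 723 cells (median 9383 UMIs) and a shallow cluster of 690 cells (median 807 UMIs, median mitochondrial share 10.8%). Of the 10 leading genes, 7 were Müller markers in the first and 1 in the second, which was led by Ttr, Dbi and Rlbp1. With a mitochondrial share of at most 10%, a cluster led by Ttr, Ptgds and Dbi (344 cells) stayed unnamed. The 10 Müller markers summed to between 37197 and 38713 counts per 1000000 UMIs of the class (CPM) in the Müller class of each library.

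Hist UMIs made up 0.168% of all UMIs (144123), and few genes carried most of them. The 6 members with most UMIs, Hist1h2bc (H2B), Hist1h1e (H1), Hist3h2ba (H2B), Hist1h4d (H4), Hist1h1c (H1) and Hist3h2a (H2A), held 78.7%. At the low end, 27 members had under 100 UMIs and 11 under 10. By type, the 16 H2B genes held 37.6% of the Hist UMIs, the 6 H1 genes 27.2%, the 13 H4 genes 18.4%, the 16 H2A genes 13.8% and the 11 H3 genes 2.96%. By cluster, the 49 Hist1 members on chromosome 13 held 73.2%, the 2 Hist3 members on chromosome 11 22.2%, the 10 Hist2 members on chromosome 3 4.25% and Hist4h4 on chromosome 6 0.386%. A UMI stands for 1 captured molecule whatever the length of the RNA, and these shares are of captured molecules, not divided by length.

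The member with most UMIs overlapped between genotypes in whole libraries, while others were ordered by genotype. Values are given here and below for the female and then the male, WT before NLGF. Hist1h2bc had 341, 370, 352 and 343 CPM in whole libraries, and the genotypes overlapped. Hist1h2ap had 3.79, 12.1, 31.4 and 22.6 CPM, so that the NLGF libraries were above both WT libraries and the WT female was lowest. Hist1h4h had 34.6, 58.4, 78.8 and 68.0 CPM, again lowest in the WT female. Of the 35 members with at least 100 UMIs, 23 had their lowest CPM in the WT female and 28 their highest in the NLGF female. Of all 14401 genes with at least 100 UMIs, 3459 and 4585 did.

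**Figure D2:**
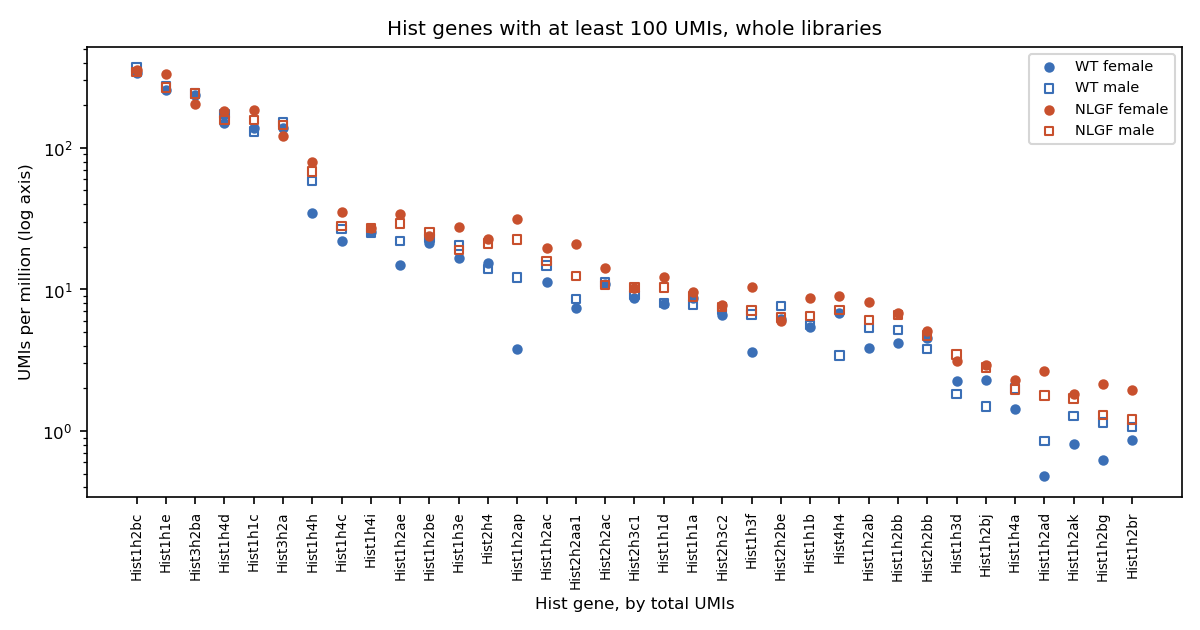
CPM (log axis) of the 35 Hist genes with at least 100 UMIs in each whole library, ordered by total UMIs. Blue is WT and red NLGF, filled circles are females and open squares males, and Hist1h2ap spans from 3.79 in the WT female to 31.4 in the NLGF female.

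Summed over all members, Hist UMIs were most frequent in cone bipolar cells and least in endothelial cells. The sum was 2101, 2284, 2272 and 2175 CPM in cone bipolar cells (mean 2208 ± 86.5, SD, n = 4 libraries). Müller glia had 1761, 1929, 2171 and 2211 CPM, rods 1468, 1569, 1902 and 1728, rod bipolar cells 1615, 1761, 1989 and 1803, and amacrine cells 1233, 1250, 1396 and 1314. In these 4 classes both NLGF libraries were above both WT libraries, while they overlapped in cones (1887, 2101, 1936 and 1876 CPM) and cone bipolar cells. Cones had a mean of 1950 ± 104 CPM, rod bipolar cells 1792 ± 154, amacrine cells 1298 ± 74.0 and endothelial cells 559 ± 54.4 (SD, n = 4 libraries each). Müller glia had a mean of 2018 ± 212, and the libraries of each neighbouring pair among cone bipolar cells, Müller glia, cones, rod bipolar cells and rods overlap. In microglia the sum was 572, 640, 1039 and 1311 CPM, again apart by genotype, from 37 to 55 UMIs per library, while the 8 rod markers in the same cells summed to 8225, 4751, 7577 and 18491 CPM. The part of rod RNA in the microglial values was not tested.

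The linker histones divided the classes. Hist1h1c had 267, 241, 351 and 312 CPM in rods and between 48.7 and 60.9 in Müller glia, and was lower in Müller glia than in rods (log2 fold change -2.41 ± 0.09, SE). Hist1h1b, another H1 gene, showed the opposite: 27.5, 35.8, 38.6 and 38.6 CPM in Müller glia, 0.26, 0.33, 0.54 and 0.72 in rods. Its fold change of Müller glia over rods was 6.16 ± 0.26 on the log2 scale (edgeR adjusted p = 1.71e-25). Its 265 UMIs in Müller glia lay in 112 cells with 14 in 1 cell. Hist1h1d was 30.4 ± 14.1 CPM in Müller glia (SD, n = 4) and 7.06 ± 0.75 in rods, and Hist1h1e, with 415 ± 42.4 and 326 ± 50.03 CPM, differed by 0.34 ± 0.08 on the log2 scale. Each class difference given with an SE here and in the next paragraphs passed edgeR's test, other than that of Hist3h2a in amacrine cells.

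Among the core histones, the Hist3 pair had its lowest mean CPM in rods among the 6 larger classes. Hist3h2ba (H2B) had 52 to 61 CPM in rods and 543 to 642 in cone bipolar cells, a log2 fold change of 3.20 ± 0.06. Its neighbour Hist3h2a (H2A) had 75.2 ± 14.5 CPM in rods and 368 ± 57.3 in cones, while its fold change of amacrine cells over rods was -0.03 ± 0.09 (edgeR adjusted p = 0.794), which does not place rods below amacrine cells. Hist2h2ac, which encodes an H2A protein of its own, had 0.74 ± 0.21 CPM in rods and 38.6 ± 11.7 in amacrine cells, where every library was above every library of the next class. Hist1h2bc was the reverse, 487 ± 26.7 CPM in rods and 64.2 ± 5.72 in amacrine cells. The H3 genes Hist2h3c1 and Hist2h3c2, partly shared copies, were highest in rods (15.8 ± 1.38 and 12.7 ± 1.31 CPM).

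The H4 genes encode 1 protein from 13 loci and followed different classes. Hist4h4 had 54.2, 13.9, 46.4 and 38.1 CPM in Müller glia, all above its highest value in rods (6.14), and 2.80 ± 0.19 on the log2 scale over rods. Hist1h4i was highest in Müller glia (64.6 ± 8.08 CPM, every library above every library of the next class, cone bipolar cells) and lowest in amacrine cells (4.94 ± 3.21). Hist1h4c was highest in rods (42.1 ± 9.16), and the class means of Hist1h4d lay between 113 and 249 CPM in all 6 larger classes.

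Against rods, with edgeR's quasi-likelihood test and the library as a block, 16 of 31 tested members were higher in Müller glia and 7 lower, where 80.7% of all genes tested were called, 39.7% higher and 41.0% lower. In cone bipolar cells 13 were higher and 14 lower of 32 (79.2% of all genes called, 38.9% higher and 40.2% lower). In rod bipolar cells 11 were higher and 12 lower of 28 (74.9%, 35.5% and 39.5%). In amacrine cells 9 were higher and 15 lower of 30 (81.4%, 39.2% and 42.2%). In cones 6 were higher and 14 lower of 28 (58.6%, 29.1% and 29.5%). In endothelial cells 1 was higher and 21 lower of 27 (66.5%, 25.6% and 40.9%), and in microglia 0 and 4 of 25 (24.8%, 9.53% and 15.3%). Of the tested members, 74.2% were called in Müller glia, 84.4% in cone bipolar, 82.1% in rod bipolar, 80.0% in amacrine, 71.4% in cone, 81.5% in endothelial cells and 16% in microglia. The filter on low counts left out between 30 and 37 members, and most genes of the retina differ between these classes, so the counts are not read as a result about the Hist genes as a set. The 8 rod markers summed to between 2261 and 3137 CPM in Müller glia, against 49179 to 55371 in rods, and the part of rod RNA in the class differences was not tested. In cells of at least 2000 UMIs, 3 members were higher and 18 lower of 22 in cones (5216 of 9824 genes called). In Müller glia these were 14 and 10 of 28 (8775 of 11199), and in cone bipolar cells 10 and 13 of 27 (9000 of 11515). Rod bipolar cells had 9 and 14 of 25 (7475 of 10280) and amacrine cells 7 and 15 of 27 (8991 of 11477). Median UMIs per cell were 806 to 954 in rods and 8672 to 9797 in cones. The part of depth was not tested otherwise.

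**Figure D3:**
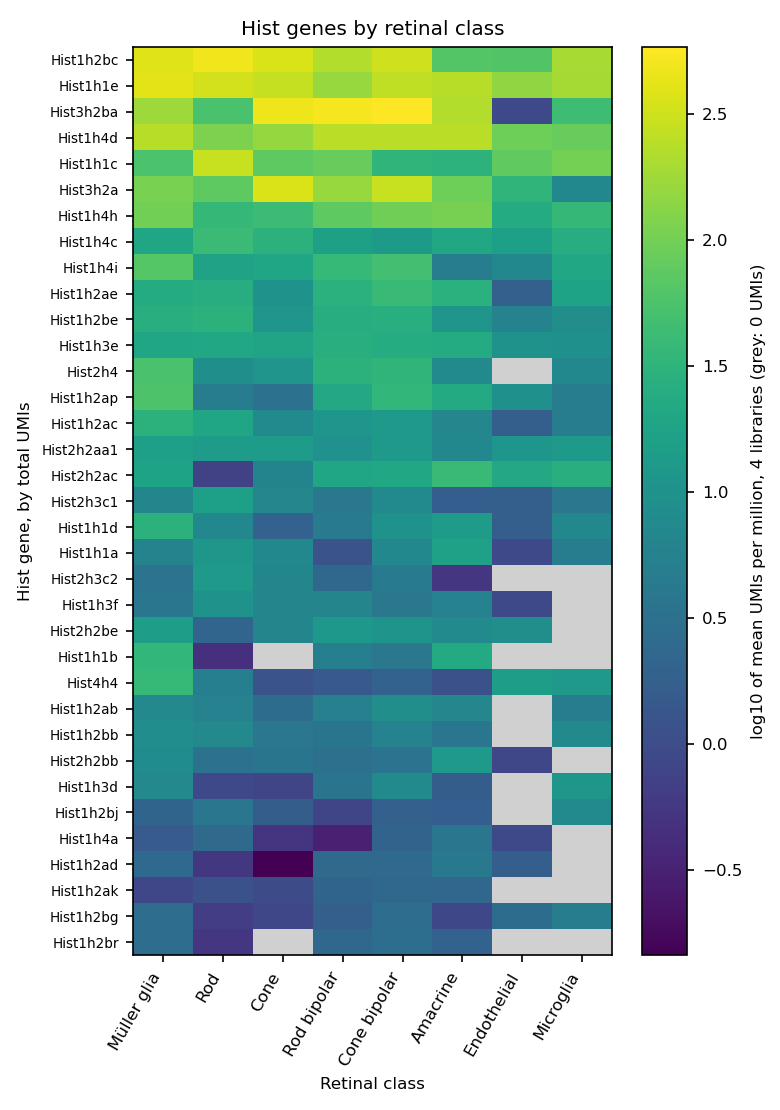
Mean CPM over 4 libraries (log10 colour scale, grey for 0 UMIs) of the 35 Hist genes with at least 100 UMIs in each of 8 classes. Hist3h2ba is brightest in cone bipolar, rod bipolar and cone cells, Hist1h1c in rods, and Hist4h4 stands out in the Müller column. Among the larger classes Hist1h1b is highest in Müller glia, followed by amacrine cells.

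In Müller glia, 4 Hist genes rose in NLGF and 0 fell (without the WT female 6 rose and 1, Hist3h2ba, fell). They were the H2A genes Hist1h2ap and Hist1h2ae, the H4 gene Hist2h4 and the H1 gene Hist1h1d. This is 4 of 27 tested members (14.8%), where 1.00% of the 11101 genes tested were called by edgeR's quasi-likelihood test, 0.568% higher and 0.432% lower. Both NLGF libraries were above both WT libraries for 14 of the 27 (20.7% of all genes), and below for 4 (20.4%). The fold change was above 0 for 22 (50.7% of all genes). The other 35 members were too sparse to test.

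Hist2h4 had 27.5 and 24.8 CPM in Müller glia of the WT female and male, and 81.6 and 78.7 in the NLGF female and male. The genotypes did not overlap, and the 2 libraries of each genotype lay close together. The fold change was 1.58 ± 0.16 (log2, SE; edgeR adjusted p = 6.26e-05). These values rest on 36, 50, 167 and 159 UMIs. No 90-base window of its transcript is shared with another listed Hist gene, and other genes were not searched.

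Hist1h2ap had 14.5 and 25.8 CPM in WT and 107 and 82.7 CPM in NLGF Müller glia, with no overlap. Its fold change was 2.12 ± 0.22 (log2, SE; edgeR adjusted p = 5.82e-05), from 19, 52, 219 and 167 UMIs. Hist1h2ae, which encodes the same protein from a less shared transcript, had 13.0 and 15.9 CPM in WT and 31.8 and 33.7 in NLGF. Its fold change was 1.11 ± 0.23 (edgeR adjusted p = 0.0336). With the UMIs of all 9 genes for this H2A protein summed before the fit, Müller glia had 54.2, 83.5, 192 and 159 CPM and a fold change of 1.27 ± 0.15 (edgeR adjusted p = 0.00038).

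Hist1h1d had 22.1 and 16.4 CPM in WT and 47.9 and 35.2 in NLGF Müller glia, a fold change of 1.10 ± 0.23 (edgeR adjusted p = 0.0338). The calls of Hist1h1d and Hist1h2ae were lost with DESeq2 (adjusted p = 0.901 and 1.00), that of Hist1h1d also without the WT male (0.101) and without the NLGF female (0.186), and that of Hist1h2ae without the NLGF male (0.0600). Hist2h4 and Hist1h2ap were called with DESeq2, with edgeR without each library in turn, and in Müller cells of at least 2000 UMIs.

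The 6 members with most UMIs did not pass the test in Müller glia. The genotypes overlapped in Hist1h2bc, Hist1h1e, Hist1h4d and Hist3h2a. Hist1h2bc had 415, 358, 386 and 414 CPM (log2 fold change 0.01 ± 0.10), Hist1h1e 354, 450, 425 and 433 (0.05 ± 0.11) Hist1h4d 212, 264, 223 and 263 (-0.02 ± 0.12) and Hist3h2a 92.4, 107, 101 and 132 (0.17 ± 0.14). Hist3h2ba was lower in both NLGF libraries, with 165 and 206 CPM in WT and 160 and 162 in NLGF (-0.26 ± 0.11, edgeR adjusted p = 0.387). Hist1h1c was higher in both, with 54.2 and 48.7 CPM in WT and 59.6 and 60.9 in NLGF (0.20 ± 0.15, adjusted p = 0.700). Hist1h4h had 55.0 and 94.9 CPM in WT and 125 and 130 in NLGF, a fold change of 0.67 ± 0.17 that missed the threshold (edgeR adjusted p = 0.0880) and was past it under 7 of 11 alternatives, among them leaving out the WT male (fold change 1.18). In Hist4h4 the WT libraries lay apart: 54.2 CPM in the WT female against 13.9 in the WT male, with 46.4 and 38.1 in NLGF. The H4 protein sum, over all 13 loci, was 447, 484, 566 and 598 CPM, with a fold change of 0.28 ± 0.10 (edgeR adjusted p = 0.287).

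**Figure D4:**
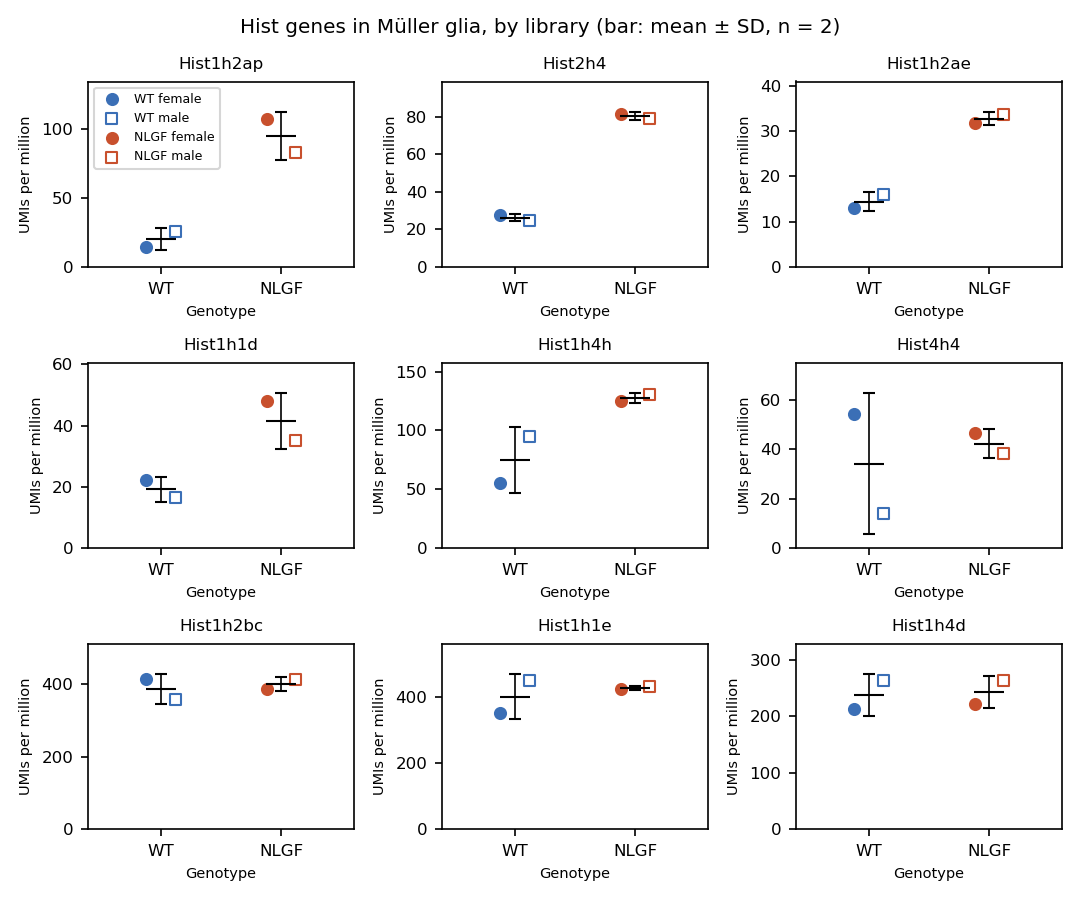
CPM in Müller glia of each library for 9 Hist genes, blue WT and red NLGF, filled circles females and open squares males, with the mean ± SD of 2 libraries in black. The upper row, Hist1h1d and Hist1h4h separate by genotype, while the lower row (Hist1h2bc, Hist1h1e, Hist1h4d) overlaps.

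The Müller class differed between libraries in ways other than genotype. Median UMIs per Müller cell were 3417 and 1746 in WT and 2315 and 3830 in NLGF (female first). The 7 astrocyte markers summed to 1645, 908, 906 and 950 CPM, the 6 retinal pigment epithelium markers to 16.04, 331, 16.6 and 134 CPM, and the 8 rod markers to 3137, 2261, 2530 and 2383 CPM. The 6 markers of dividing cells had between 2 and 5 UMIs per library. Without the Müller cells that carried at least 2 of 5 astrocyte markers, an alternative chosen after the data were seen, 5 members were called, the same 4 and Hist1h4h. Those cells held 17, 4, 4 and 10 UMIs of Hist1h4i, 17, 0, 9 and 2 of Hist4h4 and 0, 6, 13 and 3 of Hist2h4. The comparison of the genotype effect with that in rods, given below, was not fitted without them. The part of the other markers and of depth was not tested.

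In each of the other 7 classes and in whole libraries, 0 Hist genes were called by edgeR at an adjusted p of 0.05. For rods this compares with 0.00807% of all genes called, for amacrine cells with 0.0268%, for rod bipolar cells with 0.0107%, for endothelial cells with 0.0962%, for cone bipolar cells, cones and microglia with 0%, and for whole libraries with 0.0245%. At an unadjusted p under 0.05 the counts were 12 of 29 tested members in rods (8.29% of all genes tested), 6 of 27 in cone bipolar (6.54%), 6 of 20 in rod bipolar (6.27%) and 4 of 25 in amacrine cells (4.77%). They were 4 of 19 in cones (5.65%), 0 of 4 in endothelial cells (5.06%), 1 of 1 in microglia (9.33%) and 15 of 49 in whole libraries (10.2%). DESeq2 called 0 in each of these classes and 2 in whole libraries, Hist1h2ae (14.8, 22.1, 34.2 and 29.2 CPM) and the H2A gene Hist2h2aa1 (7.39, 8.52, 20.96 and 12.4 CPM). In whole libraries, fewer cells of a type and less RNA per cell cannot be told apart. Without the filter on low counts edgeR called 8 members in rods, all higher in NLGF (0.527% of all genes), and with sex as a block 9 (1.42%).

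Fold changes outside Müller glia were mostly above 0 in whole libraries, rods and rod bipolar cells. In whole libraries 43 of 49 tested members had a fold change above 0, where 51.6% of all genes did, and in 30 both NLGF libraries were above both WT libraries, where 21.5% of all genes were. In rods 26 of 29 were above 0 (51.5% of all genes). Both NLGF libraries were above both WT libraries for 18 of these 29 and below for 0. In cones they were above for 6 of 19 and below for 3. The share of all genes by this rule is not given for rods and cones. In rod bipolar cells 17 of 20 were above 0 (50.9%), and in 10 both NLGF libraries were above both WT libraries (18.1%). In amacrine cells these were 16 and 10 of 25 (50.2% and 16.3%), and in cones 13 of 19 were above 0 (49.7%). In cone bipolar cells 14 of 27 were above 0 (50.2% of all genes) and 7 of 27 were above WT in both NLGF libraries (17.7%), near the background. The median fold change over tested members was 0.34 in whole libraries (log2, 0.01 over all genes) and 0.32 in rods and in Müller glia. Members share libraries and reads and are not independent of each other, and without the WT female the count above 0 in whole libraries was 39 of 49.

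In the main fit (all libraries, filter on low counts, no block) Hist1h2ap did not pass the test in another class. Without the filter, edgeR called it in rods, rod bipolar, cone bipolar and amacrine cells. Both NLGF libraries were above both WT libraries in several classes. Its CPM was 0.65, 3.49, 8.30 and 6.74 in rods, 5.37, 16.3, 37.8 and 33.6 in amacrine cells and 2.83, 15.9, 46.7 and 22.2 in rod bipolar cells. The NLGF libraries were above the WT libraries in these 3 classes, and the WT female was lowest in each. The fold changes were 1.70 ± 0.44 (edgeR adjusted p = 0.432), 1.80 ± 0.34 (0.0924) and 1.75 ± 0.45 (0.357). Without the WT male they were 3.46, 2.69 and 3.54, and all 3 were called. Without the WT female they were 0.98, 1.09 and 1.07, and the call was made in rods alone. With sex as a block they were 1.73, 1.78 and 1.73, and Hist1h2ap was called in these 3 classes and in cone bipolar cells (1.14).

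Hist2h4 had 8.69, 6.87, 10.5 and 9.87 CPM in rods, 32.1, 32.2, 34.4 and 34.4 in cone bipolar cells and 7.32, 9.22, 8.81 and 5.59 in amacrine cells. In amacrine cells the genotypes overlapped. In rods, cone bipolar cells and cones both NLGF libraries were above both WT libraries, by less than in Müller glia. The fold change of NLGF over WT differed between Müller glia and rods by 1.25 ± 0.27 on the log2 scale (edgeR interaction, library as a block, adjusted p = 0.00234). Hist1h4i, another H4 gene, differed the other way by -0.83 ± 0.21 (adjusted p = 0.0319): it had 75.6, 63.1, 56.2 and 63.4 CPM in Müller glia and 15.2, 12.1, 23.6 and 19.4 in rods. These were the 2 members called of 37 tested, where 0.353% of all genes were, 0.236% higher and 0.118% lower. DESeq2 called 0 members, the Hist2h4 call was lost without either NLGF library, and the Hist1h4i call was lost without each library in turn other than the NLGF male. For Hist1h2ap the difference was 0.48 ± 0.37 (adjusted p = 0.812), which does not show equal effects in the 2 classes.

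**Figure D5:**
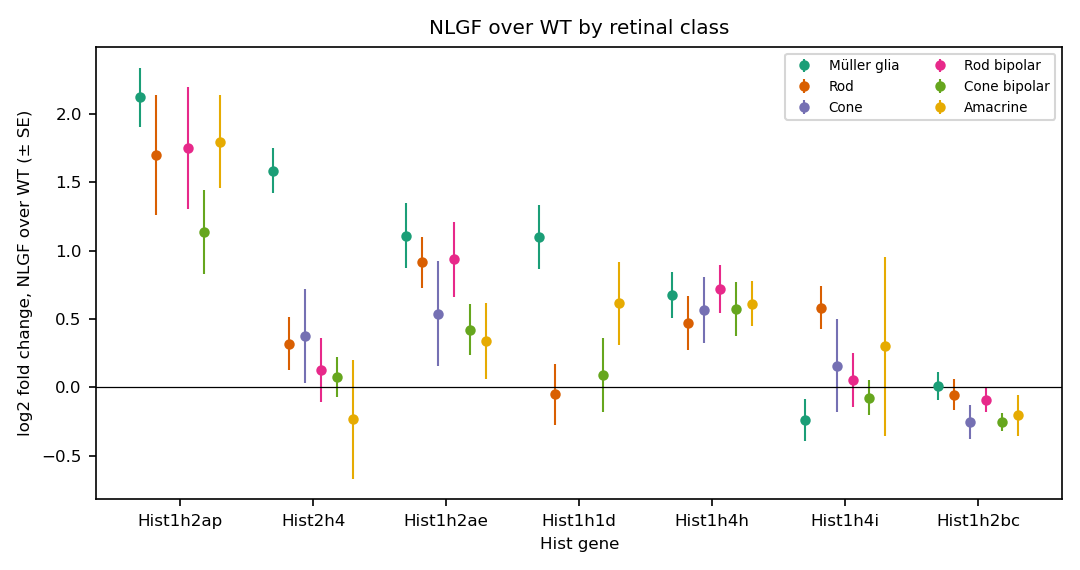
Log2 fold change of NLGF over WT with its SE for 7 Hist genes in 6 classes (a missing point was too sparse to test). Hist2h4 lies at 1.58 in Müller glia and between -0.23 and 0.38 in the other classes, Hist1h2ap and Hist1h4h lie above 0 in each class tested, and Hist1h2bc lies between -0.25 and 0.01.

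Genes that work beside the Hist genes were called in 1 of 5 lists in Müller glia, where 1.00% of all genes were called. The lists were chosen with earlier results of these data known, so they are not independent of them. Of 11 replication-independent histone genes, all tested, 0 were called by edgeR. H3f3b, an H3.3 gene used outside S phase, had 1273, 1342, 1325 and 1288 CPM. H1f0, the linker histone of resting cells, had 87.8, 80.0, 87.9 and 79.7 CPM. H3f3a, the other H3.3 gene, had 1286, 1301, 987 and 1057 CPM, a fold change of -0.38 ± 0.09 with an edgeR adjusted p of 0.0746. Slbp, which binds the stem-loop, had 34.4, 43.7, 37.1 and 42.1 CPM (log2 fold change -0.05 ± 0.18), and 0 of the 14 tested genes of histone mRNA processing and transcription were called. Neither were any of 15 tested histone chaperones or of 7 tested S phase and mitosis genes. At an unadjusted p under 0.05 by edgeR these lists held 2 replication-independent histones, 0 processing genes, 2 chaperones and 2 S phase and mitosis genes. The list of p53 target and arrest genes held 3 of 10, and 10.8% of all genes had such a p. DESeq2 called 1, 0, 0 and 0 in the lists other than the p53 list. Mki67, a marker of dividing cells, had 0, 2, 0 and 0 UMIs. Of 10 tested p53 target and arrest genes, 2 rose: Cdkn1a, the p21 inhibitor of cell-cycle kinases, from 3.05 and 6.96 CPM in WT to 45.9 and 34.7 in NLGF (2.85 ± 0.32, edgeR adjusted p = 0.000158), and Phlda3, an Akt inhibitor, from 14.5 and 15.9 to 32.7 and 31.7 (1.03 ± 0.23, adjusted p = 0.0451). The median fold change was -0.02 for the replication-independent histones, 0.08 for the processing genes, -0.13 for the chaperones, 0.47 for the S phase and mitosis genes and 0.22 for the p53 list, with 0.00 over all genes.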

How the data were processed

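Retinas of 4 mice, 1 per library, were dissociated and measured by droplet single-cell RNA-seq. What the authors deposited are unnormalized UMI counts for each gene in each barcode. Cell Ranger 6.1.1 wrote them per the file headers, while version 3.1.0, STAR and mm10 stand in the submitters' processing notes. The handling of intronic reads was not given in the sources used here. Cells passed with 300 or more genes and a mitochondrial share of up to 20% (33329). Scrublet's own threshold marked 2 cells and so did not work, and the top 6% by score in each library were removed (2000). Clustering (scanpy 1.11.5, 2000 variable genes, none of them Hist genes, 30 components, resolution 1) gave 19 clusters, named from marker genes. A rule that left a cluster unnamed where its leading genes pointed to another class was set after the data were seen.

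Counts were summed per library and class and tested with edgeR 4.0.16 (quasi-likelihood, TMM, filterByExpr, Benjamini-Hochberg over all genes tested, threshold 0.05), with DESeq2 1.42.0 as an alternative. SE is the log2 fold change over the root of F, and printed CPM are raw counts per 1000000 UMIs of a class. Stem-loops, ends and copies came from GENCODE M21, promoters from RefSeq. Named were members called in any comparison, the 10 with most UMIs and their near-identical copies, of which the text gives those the results turn on. The members and lists were chosen with earlier results of these data known. The fits were tested on simulated data.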

Additional observations from a re-analysis of the deposited data

Results flagged for a closer look

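For 2 Hist genes the fold change of NLGF over WT differed between Müller glia and rods by the interaction test (edgeR, library as a block). Hist2h4 had a difference of 1.25 (log2, adjusted p = 0.00234), and Hist1h4i a difference of -0.83 (adjusted p = 0.0319). Over the alternatives the adjusted p ranged from 0.00221 to 1.00 for Hist2h4 and from 0.0328 to 1.00 for Hist1h4i. The 2 genes encode the same H4 protein.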

How the results depend on the processing

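The counts of called Hist genes depended on the processing, and so did those over all genes. In Müller glia 111 of 11101 genes tested were called in the main fit and 323 with sex as a block. DESeq2 called 41 of 14142 there, and summed proteins gave 109 of 11093. In rods 1 of 12393 was called, 107 of 20294 without the filter and 176 with sex as a block. Without the filter, rod bipolar cells had 41 of 16670, amacrine cells 74 of 18919 and cone bipolar cells 39 of 19153. With sex as a block these were 34, 46 and 12. In Müller glia (4 called) DESeq2 called 2, summing identical proteins 2, sex as a block 7, and leaving out 1 library 4 to 7. The 7 without the WT female were 6 higher and 1 lower, Hist3h2ba. In rods (0 called) no filter on low counts gave 8, sex as a block 9 and leaving out 1 library 0 to 9. In rod bipolar cells these were 3, 3 and 0 to 3, in amacrine cells 2, 2 and 0 to 2, and in cone bipolar cells 2, 1 and 0 to 2. In microglia leaving out 1 library gave 0 to 1. In whole libraries DESeq2 called 2, no filter 6, and leaving out 1 library 0 to 3. For the interaction (2 called) DESeq2 and summed proteins gave 0, no filter 1 and leaving out 1 library 0 to 2. Over all genes, DESeq2 called 62 of 13178 in whole libraries, and no filter gave 202 of 23784. For the interaction, DESeq2 called 8 of 21297 genes, summed proteins gave 43 of 13563 and no filter 41 of 21297. Summed proteins gave 17 calls of 20 over rods in cone bipolar, 14 of 18 in rod bipolar and 14 of 16 in endothelial cells. Over all genes these were 10085 of 12739, 8860 of 11829 and 7971 of 11979. For the replication-independent histones in Müller glia (0 called) DESeq2 gave 1 and leaving out 1 library 0 to 1, and for the p53 list (2 called) 1 and 1 to 4. The cause of these changes was not tested. Hist1h2ap and Hist2h4 in Müller glia kept their direction and call under 11 of 11 alternatives (1.83 to 2.67 and 1.51 to 1.64). No paired analysis was possible because the labels tie no mice together by litter or day. The fit with sex as a block matches female with female and male with male. A lone library left in a group is assumed to vary like the others. With 0 Hist genes among the 2000 variable genes, keeping them there changed nothing and was not run again. Depth limits the sparse members: 27 had under 100 UMIs.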
